A study of Homo sapiens with 15 samples.

Results

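The CpGs described here are those that lost methylation when UHRF1 was depleted and had not regained it 14 days after the short hairpin RNA (shRNA) was switched off, in each of 3 clonally expanded HCT116 lines. They were chosen by methylation level (mC), the methylated reads at a CpG over all its reads. A member had at least 10 reads in all 9 clone libraries, Baseline mC of at least 0.85, a Knockdown mC lower by at least 0.3 and a Recovery mC lower than Baseline by at least 0.3, in each of Cl.3, Cl.6 and Cl.9. Of 27852739 autosomal CpGs, 10724649 had enough reads and 6032603 of these were highly methylated at Baseline in the 3 clones. Knockdown lowered mC by 0.3 or more in every clone at 459402 of them, here called lost CpGs. Of the lost CpGs 90315 (19.7%) met the Recovery criterion in all 3 clones and are called unrecovered, and 77287 (16.8%) met it in none and are called recovered. The remaining lost CpGs were unrecovered in 1 clone (161293) or in 2 clones (130507).

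UHRF1 is the ubiquitin ligase that recognizes hemi-methylated CpGs after replication and recruits DNMT1, the methyltransferase that copies the parental pattern onto the new strand. When copying fails at a CpG, methylation is diluted at each division, and a site that has lost it on both strands no longer offers the hemi-methylated substrate. Its methylation can then return only by de novo methylation, for which DNMT3A and DNMT3B are the main enzymes. CpGs flanked by A or T on both sides (WCGW) with no CpG nearby (solo-WCGW) are known to lose methylation in dividing cells, most of all in partially methylated domains (PMDs), which replicate late.

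HCT116 is a human colorectal carcinoma line. The shUHRF1 libraries came from the clones Cl.3, Cl.6 and Cl.9, each grown from a single cell, and the shDNMT1 libraries from 2 bulk populations, R1 and R2, with an shRNA induced by doxycycline in both kinds. Every population was profiled by whole-genome bisulfite sequencing at Baseline (day 14, no doxycycline), Knockdown (day 14 at 10 ng/mL doxycycline) and Recovery (day 28, with doxycycline withdrawn after day 14), giving 15 libraries in 6 groups. Target, kind of population and count table went together, so they cannot be told apart between shUHRF1 and shDNMT1. No bisulfite library of an untreated culture at day 28 was analysed here, nor were UHRF1 and DNMT1 levels. Median depth at autosomal CpGs was 11 to 21 reads, with Cl.9 deepest (20 to 21). At 10 reads the Wilson 95% confidence interval of a CpG with 5 methylated reads ran from 23.7% to 76.3%, and at 20 reads with 10 methylated from 29.9% to 70.1%, covering counting error only.

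The sequences below place 5 unrecovered and 3 recovered CpGs in their surroundings, as examples of the most extreme sites at good depth. They were taken by rule among CpGs with at least 20 reads in all 15 libraries, as those with the largest deficit or the highest Recovery mC in the clone where it was smallest, at most 1 per chromosome. Not every site of the rule is shown, and those in untranslated regions are among the ones left out. Capitals mark the CpG with the base before and after it, on the forward strand of hg38. The first 5 lines are unrecovered CpGs, named by the gene that holds them or whose promoter they lie in.
COTL1: catagattagttTCGCcttgtctaggat
LIN9: gacgagaattgaACGAaattgaaagaag
SYVN1: aaggatatttatTCGGgaatgggtatag
C19orf81: aagaactttcagGCGCatccattgcaaa
TRMU: agagaagggtagGCGGaccataagcaga
The last 3 lines are recovered CpGs.
ATXN7L1: gtagaatagagaACGTagaacaggtacc
AKAP1: gcttaagtggttTCGAgcttcttgctat
CYB5R3: gggcataggaggGCGAgtggggtgcatg

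All 8 lay in highly methylated domains (HMDs) of the R1 Baseline library. The COTL1 site (chr16:84616953-84616980) is intronic, in a gene for an actin-binding protein. Its mC in Cl.3 was 97.4% at Baseline, 5.26% at Knockdown and 10% at Recovery. In Cl.6 it was 97.7%, 21.4% and 11.4%, and in Cl.9 98.04%, 4.69% and 12.5%. Recovery thus stayed near Knockdown in Cl.3 and Cl.9 and was below it in Cl.6. In the bulk populations the same CpG went from 76.9% to 14.7% and 58.1% in R1, and from 77.4% to 14.5% and 60% in R2. The LIN9 site (chr1:226310008-226310035) lies in the promoter of this gene for a subunit of the cell cycle repressor complex DREAM, and its nearest CpG is 11 bp away. Its Recovery mC was 5% in Cl.3, 15% in Cl.6 and 11.8% in Cl.9, from Baseline levels of 91.3%, 95% and 94.7%. In R1 and R2 it was 60% and 66.7%, from 70% and 68%. Both sites were thus nearer their Baseline in the bulk populations than in any clone.

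The other 3 unrecovered examples are intronic. The site shared by SYVN1, for a ubiquitin ligase of the endoplasmic reticulum, and the overlapping MRPL49 (chr11:65123371-65123398) stood at 20% in Cl.3, 16% in Cl.6 and 0% in Cl.9 at Recovery. None of the 27 reads of Cl.9 was methylated, which allows a level of up to 11.1% (3 counts of the total). In R1 and R2 it recovered to 58.8% and 61.1%, from 93.5% and 87.9%. The C19orf81 site (chr19:50657627-50657654) stood at 20%, 18.8% and 5.41% at Recovery in Cl.3, Cl.6 and Cl.9, and at 78.0% and 86.2% in R1 and R2. The site in TRMU, for a mitochondrial tRNA-modifying enzyme (chr22:46336745-46336772), reached 20%, 7.69% and 2.38% there, with 44.7% for R1 and 38.5% for R2. The TRMU site started at 70.97% in R1 and 46.9% in R2, below every clone (92.3% to 100%), and COTL1, LIN9 and C19orf81 (90.9% in R1 and 90.2% in R2) also had a lower Baseline in both bulk populations than in any clone.

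The recovered examples had returned to Baseline in the same clones. The ATXN7L1 site (chr7:105853029-105853056), in an intron, was at 66.7%, 57.1% and 52.8% at Knockdown and at 100%, 100% and 97.3% at Recovery in Cl.3, Cl.6 and Cl.9. The sites in AKAP1, for a mitochondrial anchor of protein kinase A (chr17:57110833-57110860), and in CYB5R3, for a cytochrome b5 reductase (chr22:42716233-42716260, also within A4GALT), recovered to between 96.2% and 100% in the clones. In R1 and R2 the 3 sites stood at 88% to 100% at Recovery. These 3 sites too had a lower Baseline in both bulk populations than in any clone. The rule asked for a high Baseline in the clones only.

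The rule fixes the direction of mC at its members in the clones, so the clone levels are given without a test. The mean over the 90315 unrecovered CpGs was 97.2% at Baseline, 44.8% at Knockdown and 52.7% at Recovery in Cl.3. In Cl.6 it was 96.6%, 38.2% and 48.7%, and in Cl.9 94.0%, 16.4% and 28.8%. Cl.9 lost most at these sites and was lowest at both later stages. Recovered CpGs had Knockdown means of 59.6%, 56.0% and 41.7% in Cl.3, Cl.6 and Cl.9, and Recovery means of 87.2%, 85.3% and 77.6%. Unrecovered CpGs had therefore also lost more, with Knockdown minus Baseline of -62.8 ± 13.2 percentage points (SD, n = 3 clones) against -44.7 ± 7.81 points. At unrecovered CpGs the share of the loss regained was 15.1%, 17.9% and 16.1% in Cl.3, Cl.6 and Cl.9. At recovered CpGs it was 71.4%, 69.9% and 66.9%. Both sets were chosen on the Recovery deficit, so the difference in loss, these shares and their closeness between clones follow partly from the choice. At all lost CpGs, before that choice, the share regained was 45.8%, 41.9% and 28.5%, lowest in Cl.9.

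**Figure D1:**
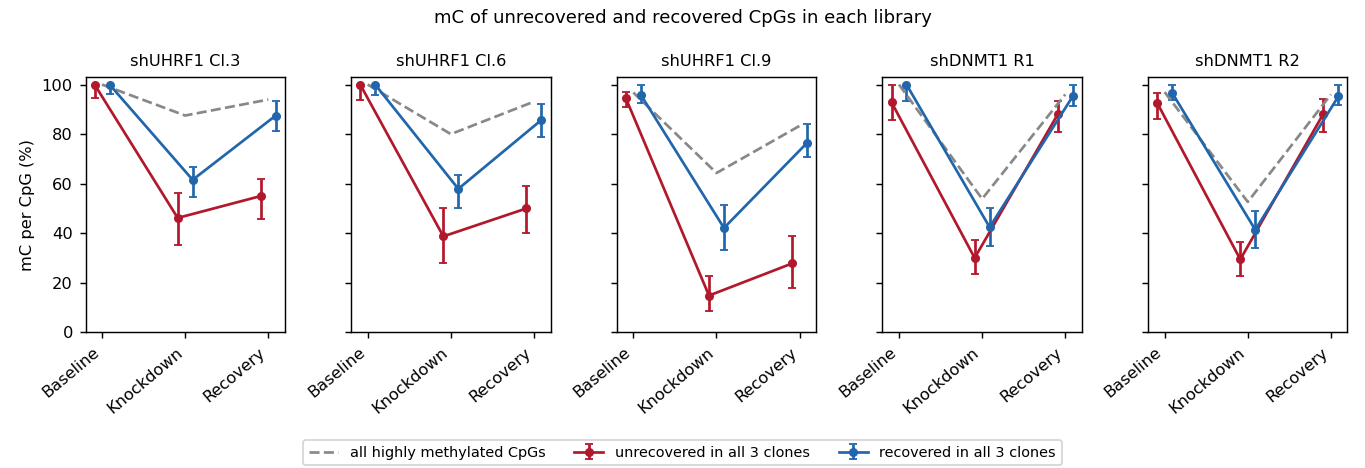
mC per CpG (%) at Baseline, Knockdown and Recovery in the 5 populations, with points at the median over CpGs and bars from the lower to the upper quartile for CpGs unrecovered (red) or recovered (blue) in all 3 clones, and a dashed grey line at the median of all CpGs highly methylated in the 3 clones. Unrecovered CpGs stayed low at Recovery in the clones by choice, with medians of 55%, 50% and 27.8%, and stood at medians of 88% and 88.2% in R1 and R2, which the choice did not use.

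A level lower at Recovery than at Knockdown in every clone was rare. Recovery mC was below Knockdown mC at 27.5% of members in Cl.3, 22.6% in Cl.6 and 15.9% in Cl.9, and at 1237 members (1.37%) in all 3. A deficit of more than 0.7 was held by 3.80% of members in Cl.3, 6.89% in Cl.6 and 39.9% in Cl.9, and by 1094 (1.21%) in all 3. No member was without a methylated read at Recovery in all 3 clones. The 31613 members whose smallest deficit was 0.30 to under 0.35 had mean Recovery levels of 61.0%, 56.5% and 34.4% in Cl.3, Cl.6 and Cl.9. The 45835 lost CpGs just outside the threshold, with a smallest deficit of 0.25 to under 0.30, had 66.2%, 61.6% and 38.5%. Both sets were cut on the deficit itself, so the closeness of these means was fixed by the cut. Their counts show that many lost CpGs lay close to the threshold on either side. The 14333 members with a deficit of 0.50 or more in every clone stood lower in the bulk populations too, at 82.2% in R1 and 82.5% in R2 at Recovery, against 87.3% and 87.6% for the members just inside the threshold. They had also started lower there, at 88.0% and 88.2% against 91.1% and 91.2% at Baseline.

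The clones differed in how many lost CpGs met the Recovery criterion. Among lost CpGs the deficit of 0.3 was met at 30.8% in Cl.3, 41.1% in Cl.6 and 79.0% in Cl.9. CpGs unrecovered in 2 clones were nearly all unrecovered in Cl.9, together with Cl.6 (85317) or with Cl.3 (42336), while 2854 were unrecovered in Cl.3 and Cl.6 and recovered in Cl.9. Of the CpGs unrecovered in 1 clone, 145016 were so in Cl.9, 10351 in Cl.6 and 5926 in Cl.3.

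To ask whether the same CpGs fail to recover in a clone whose Recovery library did not choose them, lost CpGs were chosen on the Recovery of 2 clones and read in the third. Being lost was still defined by the Baseline and Knockdown of all 3 clones, so the Baseline in these differences was used by the choice. In Cl.3 Recovery minus Baseline was -31.8 points at CpGs unrecovered in both Cl.6 and Cl.9, and -12.9 points at CpGs recovered in both. With Cl.6 left out it was -39.0 and -15.6 points, and with Cl.9 left out -63.9 and -37.7 points. The difference came to -18.9 points when Cl.3 was read, -23.3 points for Cl.6 and -26.1 points for Cl.9 (mean of -22.8 ± 3.63, SD, n = 3), the same direction in 3 of 3 clones and several times its SD. An exact two-sided sign-flip permutation gave p = 0.25, the smallest that 3 clones allow. The 3 differences are not independent, since each clone also served to choose the CpGs read in the others. Their SD and p-value therefore do not measure the spread between independent clones. Without Cl.9, each of the other clones being read with CpGs chosen on the other, the mean difference was -14.3 points. The CpGs chosen on the other clones were themselves unrecovered in the left-out clone at 51.4% in Cl.3, 68.1% in Cl.6 and 96.9% in Cl.9, against 7.12%, 11.8% and 65.2% of CpGs chosen as recovered. Knockdown loss, which the choice used in all 3 clones, also differed between unrecovered and recovered CpGs, so this comparison does not separate depth of loss from recovery.

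The bulk populations took no part in the choice. At the 84548 unrecovered CpGs with at least 10 reads in all 6 shDNMT1 libraries, mC went from 90.1% to 30.4% and back to 85.7% in R1, and from 90.2% to 29.7% and back to 86.0% in R2. At the 71586 recovered CpGs it went from 96.0% to 42.7% and 94.2% in R1, and from 96.0% to 41.7% and 94.3% in R2. Both sets thus regained most of what they had lost in the bulk populations, 92.6% and 93.1% of the loss at unrecovered CpGs and 96.8% and 96.9% at recovered CpGs. Recovery minus Baseline was -4.41 and -4.18 points at unrecovered and -1.73 and -1.68 points at recovered CpGs, a difference of -2.59 ± 0.127 points (SD, n = 2). CpGs unrecovered in 1 clone had -2.61 and -2.48 points and those unrecovered in 2 clones -3.33 and -3.15 points, so the deficit in R1 and in R2 went up with each clone in which a CpG was unrecovered. Unrecovered CpGs also started lower, the Baseline difference being -5.84 ± 0.00858 points, and lost more, the difference in Knockdown minus Baseline being -6.24 ± 0.214 points. Each of these 3 differences had the same sign in 2 of 2 populations and exceeded its SD, with exact two-sided sign-flip p = 0.5, the smallest that 2 populations allow. Without Cl.9 in the choice, the Knockdown difference was -2.70 points. At CpGs with Baseline mC of 0.85 or more in R1 and R2, the differences were -1.98 points at Baseline, -9.08 at Knockdown and -3.27 at Recovery. This filter used the same Baseline values that are subtracted. In R1 and R2 77.1% and 78.4% of members met it, against 95.7% and 96.9% of recovered CpGs. The filter can thus shift these differences by itself, so they are no check on the lower start of members.

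**Figure D2:**
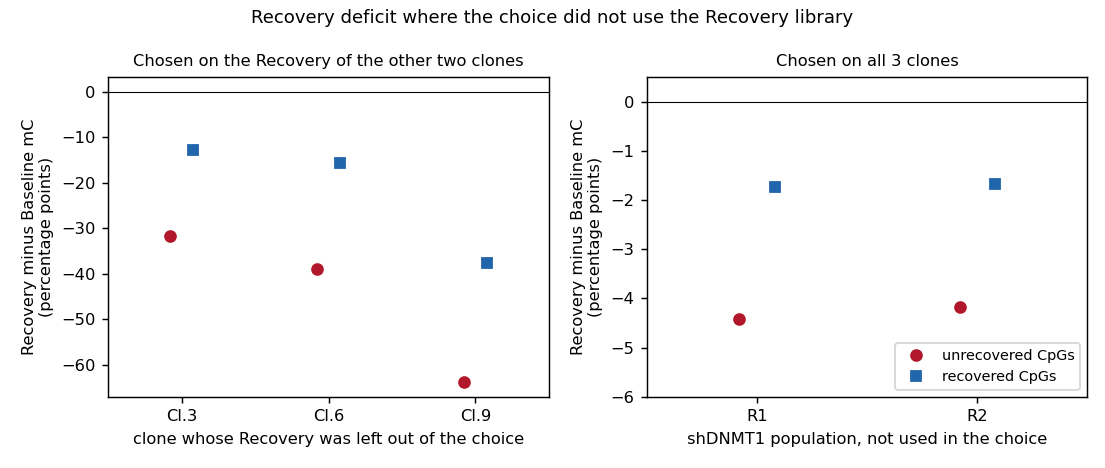
Recovery minus Baseline mC in percentage points where the choice did not use the Recovery library. Left, the clone whose Recovery was left out when lost CpGs (lost in all 3 clones) were chosen on the Recovery of the other two clones, and right, the shDNMT1 populations for CpGs chosen on all 3 clones, with circles for unrecovered and squares for recovered CpGs (each point is the mean over CpGs of 1 population, and the axes differ in range). Unrecovered CpGs lie lower in all 5 populations, with differences of -26.1 to -18.9 points in clones and of -2.68 and -2.50 points in bulk.

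When the selection rule of the clones was applied to the bulk populations one at a time, few of the unrecovered CpGs met it there. In R1 77.1% of members with enough reads had Baseline mC of at least 0.85, 99.7% of these lost 0.3 or more and 1.14% of the lost stayed 0.3 or more below Baseline at Recovery. In R2 the shares were 78.4%, 99.8% and 0.924%. At recovered CpGs 0.0936% and 0.0701% of the lost met the last step, and at all CpGs highly methylated in the clones 0.119% and 0.121%. A small share of the members thus met the rule in shDNMT1 cells too, and it was above that of recovered CpGs in both populations.

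Single CpGs were also tested by Fisher's exact test within R1 and within R2, adjusted over all autosomal CpGs with at least 10 reads in both libraries. The test compares a pair of libraries, not replicates. At Knockdown 94.7% of unrecovered CpGs were called lower in R1 and 97.2% in R2, against 54.2% and 61.2% of all CpGs tested and 93.5% and 97% of recovered CpGs. At Recovery Fisher's test called 0 CpGs lower in either population, members or others, at Benjamini-Hochberg adjusted p under 0.05 (background 0% in R1, in R2 and with the counts of R1 and R2 summed). At unadjusted p under 0.05, 2.46% of members were lower in R1 (2124 CpGs) and 3.41% in R2 (3019), against 0.786% and 0.970% of all CpGs and 0.415% and 0.8999% of recovered CpGs. With the counts of R1 and R2 summed, 6.89% of members, 1.79% of all CpGs and 2.02% of recovered CpGs were lower at unadjusted p under 0.05. A deficit of a few points was not detectable at a single CpG at this depth.

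Summed over 100 kb windows, the shDNMT1 libraries had enough reads for edgeR's quasi-likelihood test over both populations. Of 27016 windows tested 10535 (39.0%) were lower at Recovery than at Baseline at adjusted p under 0.05, and 25 were higher. Windows were divided by the make-up of their unrecovered and recovered CpGs where they held at least 10 of both together. Where at least 75% of these were unrecovered, 36.0% of 561 windows were called, against 55.6% of 347 windows with at most 25% unrecovered and 47.4% of 5625 between. The share called was thus not higher where unrecovered CpGs prevailed, but these windows started lower. Where at least 75% were unrecovered, pooled mC at Baseline and Recovery was 75.6% and 74.6% in R1, 75.5% and 74.1% in R2. With at most 25% it was 86.2% and 85.2%, and 86.1% and 84.97%. The test compares ratios of methylated to unmethylated reads, where a given change in points counts for more at the higher level. The shares called therefore do not show a smaller deficit in points where unrecovered CpGs prevailed. With 1 library left out and no block, the windows called fell to 5845 without R1 Baseline, 5428 without R2 Baseline, 6406 without R1 Recovery and 5707 without R2 Recovery. Unrecovered CpGs were spread thinly, with a median of 3 and at most 36 per window among the 20356 windows that held any, of 27679 in all.

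Unrecovered CpGs differed from recovered ones in the bases beside them, which the rule did not use. A or T stood on both sides of 50.3% of unrecovered CpGs, 31.7% of recovered CpGs and 22.001% of all highly methylated CpGs. Solo-WCGW CpGs, with no CpG within 35 bp, made up 34.8%, 20.8% and 10.9%. Lost CpGs as a whole lay between, with WCGW flanks at 41.5% and solo-WCGW at 27.7%, and so did those unrecovered in 2 clones, with 43.6% and 29.0%. Within each clone, solo-WCGW CpGs made up 33.0%, 31.0% and 29.4% of the unrecovered CpGs of Cl.3, Cl.6 and Cl.9, against 25.3%, 25.4% and 21.3% of their recovered CpGs. The difference was 7.11 ± 1.31 points (SD, n = 3), in the same direction in 3 of 3 clones (exact two-sided sign-flip p = 0.25, the smallest possible). Inside PMDs it was 2.52 points. All clones were read at the same lost CpGs. The 90315 members count as unrecovered and the 77287 recovered CpGs as recovered in every clone, so the 3 differences are not independent. Their SD and p-value do not measure the spread between independent clones.

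The 10 possible flanks, with both strands merged, differed in both shares. CpGs in the contexts ACGT, ACGA and TCGA were unrecovered in 24.1%, 23.7% and 23.5% of cases among lost CpGs. In ACGC 14.8% were unrecovered and 28.2% recovered, and in CCGC, GCGA and GCGC recovered CpGs also prevailed, at 23.7%, 23.04% and 22.04% against 15.3%, 16.1% and 17.6%. In CCGA (18.5% unrecovered and 12.1% recovered), ACGG (18.2% and 15.6%) and CCGG (15.1% and 13.2%) unrecovered CpGs prevailed. With 1 more base on either side, AACGTT led all hexamers with at least 500 lost CpGs. It stood at 7910 lost CpGs, of which 44.9% were unrecovered and 2.17% recovered, followed by AACGTC with 33.1% and 7.55%. The lowest was CACGCA, with 10.98% unrecovered and 19.5% recovered, next to CACGCC with 11.9% and 38.5% of 30074 lost CpGs.

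Base composition differed at several positions around the CpG. At the base before it, 43.0% of unrecovered, 39.1% of recovered and 25.9% of all highly methylated CpGs had an A. At 3 bases before it the shares of A were 46.0%, 35.7% and 28.5%. At 2 bases before the CpG, A or T stood at 48.1% of unrecovered and 34.2% of recovered CpGs, with 48.8% of all highly methylated CpGs. The base composition of the wider surroundings was close, with mean GC of 45.3% in unrecovered, 46.1% in recovered and 45.1% in all highly methylated CpGs.

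**Figure D3:**
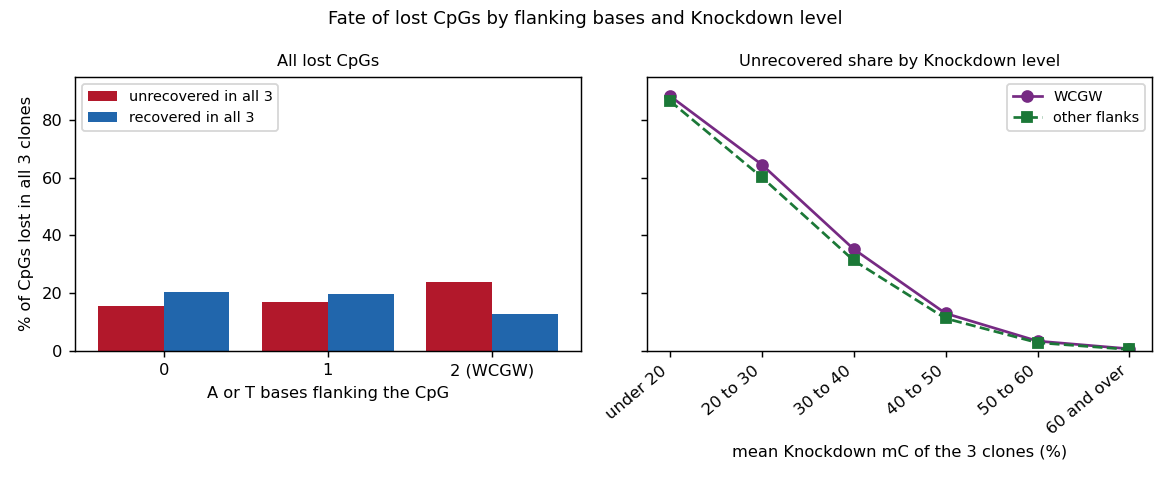
Share of the CpGs lost in all 3 clones (%) that were unrecovered (red) or recovered (blue) in all 3, by the number of A or T bases next to the CpG (left), and the unrecovered share by the mean Knockdown mC of the 3 clones for WCGW and other CpGs (right). The unrecovered share rises from 15.6% without A or T to 23.8% with A or T on both sides, and the WCGW line lies above the other in all 6 ranges of Knockdown mC, with 64.6% against 60.3% between 20% and 30%.

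The depth of the loss and the fate at Recovery went together, both being read from the same clones. Unrecovered was defined by a fixed deficit from Baseline, so a CpG that had lost little left the class by regaining little. A CpG that had lost much had to regain more. The cutoff thus builds in a trend of this direction, and how much of it was built in was not tested. The shares below therefore do not show that deeper loss hinders recovery. Among lost CpGs whose mean Knockdown mC over the clones was under 20%, 87.7% were unrecovered and 0.168% recovered. Between 20% and 30% it was 62.6% and 1.33%, between 40% and 50% 11.9% and 12.6%, and at 60% or over 0.469% and 61.6%. Within a range of Knockdown mC the flanks made less difference than over all lost CpGs. From 20% to 30%, 64.6% of WCGW and 60.3% of other CpGs were unrecovered, and from 30% to 40% 35.3% and 31.3%. WCGW CpGs were the more often unrecovered in all 6 ranges.

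Distance to the next CpG separated lost from retained CpGs more than it separated unrecovered from recovered ones. Low-density CpGs, with the nearest CpG at least 20 bp away, made up 86.1% of unrecovered, 84.2% of recovered and 60.04% of highly methylated CpGs. The share lost rose from 1.63% at 2 to under 10 bp to 12.4% at 50 to under 100 bp and was 9.65% at 100 to under 200 bp and 9.21% at 200 bp or more. The share of lost CpGs unrecovered went from 16.7% at 2 to under 10 bp to 20.4% at 50 to under 100 bp. Within clones the low-density difference between unrecovered and recovered CpGs was 1.01 ± 0.628 points (SD, n = 3), positive in 3 of 3 clones (exact sign-flip p = 0.25, the smallest possible). It turned to -0.587 points when loss and deficit had to be 0.4, to -0.0225 points at 20 reads and to -0.192 points when recovered meant 70% of the loss regained, so its direction depended on the choice. With 1 clone left out of both choice and mean it was 2.72 points without Cl.3, 2.96 points without Cl.6 and 1.52 points without Cl.9. As for solo-WCGW, the clones share CpGs, so SD and p-value do not measure the spread between independent clones.

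PMDs held 21.5% of unrecovered, 7.30% of recovered and 15.2% of highly methylated CpGs, by the domains of the R1 Baseline library, which the rule did not use. The share was 19.8% of all lost CpGs, 20.0% of those unrecovered in 1 clone and 25.8% of those unrecovered in 2, so it was not highest in the members. Members with a deficit of 0.50 or more in every clone had 16.5% in PMDs, and those just inside the threshold 23.2%. Lost CpGs in PMDs were seldom recovered in all 3 clones (6.20%, against 19.6% in HMDs), whereas the unrecovered share was 21.4% in PMDs and 19.01% in HMDs. Per clone, PMDs held 21.2%, 23.8% and 22.9% of unrecovered CpGs and 19.2%, 17.0% and 8.38% of recovered CpGs in Cl.3, Cl.6 and Cl.9. The difference was 7.78 ± 6.26 points (SD, n = 3), positive in 3 of 3 clones but only 2.06 points in Cl.3 (exact sign-flip p = 0.25, the smallest possible). Without Cl.3 it was 13.4 points. With loss and deficit of 0.4 the mean was 5.84 points, but the 3 clones no longer shared a sign (exact sign-flip p = 0.5). Here too the clones share CpGs, so SD and p-values do not measure the spread between independent clones. WCGW flanks marked unrecovered CpGs in both kinds of domain, with 56.7% against 32.6% of recovered CpGs in HMDs and 29.9% against 21.2% in PMDs.

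Among lost CpGs outside PMDs, the unrecovered share was higher near unmethylated regions (UMRs), stretches of unmethylated CpGs that often hold promoters and CpG islands, than far from them. Of the 46127 UMRs of the R1 Baseline library, the 13900 that touched no PMD were used, with a median length of 1615 bp, together with lost CpGs outside PMDs. Within 200 bp from a UMR 55.1% of 6039 lost CpGs were unrecovered and 2.88% recovered. At 200 to under 500 bp it was 39.9% and 7.29%, at 500 to under 1000 bp 27.8% and 14.2%, and at 5000 bp or more 17.6% and 20.1%. The few CpGs inside a UMR that were highly methylated in the clones and lost (463) were unrecovered in 63.1% of cases. Over all UMRs, those touching PMDs included, the shares were 29.9% of 4409 lost CpGs inside, 48.7% at under 200 bp and 18.2% at 5000 bp or more. Most members were not near a UMR, since 3.68% of them lay outside PMDs within 200 bp of one and 61.2% at 5000 bp or more. At every distance outside a UMR the unrecovered share was higher with WCGW flanks, and inside a UMR it was lower, at 56.5% of 69 WCGW and 64.2% of 394 other lost CpGs. Within 200 bp 60.9% of WCGW and 53.5% of other CpGs were unrecovered, and at 5000 bp or more 22.4% and 13.5%. CpGs within 1000 bp of a UMR made up 7.57% of CpGs unrecovered in Cl.3 and 3.17% of those recovered there, 6.76% and 2.97% in Cl.6, and 4.99% and 2.76% in Cl.9.

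Loss itself was also more frequent there. The share of highly methylated CpGs lost in all 3 clones was 33.1% at under 200 bp from a UMR and 6.83% at 5000 bp or more. In the bulk populations, unrecovered CpGs outside PMDs and within 1000 bp of a UMR (7718) went from 88.8% at Baseline to 25.1% and 82.2% in R1, and from 88.9% to 24.7% and 82.8% in R2. Those at 5000 bp or more (51665) went from 91.3% to 30.9% and 87.0%, and from 91.3% to 30.2% and 87.2%. Recovery minus Baseline was thus -6.56 and -6.09 points near UMRs and -4.33 and -4.05 points far from them, while recovered CpGs had -2.61 and -2.17 points near and -1.72 and -1.64 points far. The UMRs were called on R1 Baseline, 1 of the libraries behind these values.

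The CpGs surrounding members differed in level as well. In R1 at Baseline, CpGs at 500 to under 1000 bp from an unrecovered CpG had a pooled mC of 67.8%, against 86.8% around recovered CpGs, and at 20 to under 50 bp it was 84.7% and 92.5%. In R2 the values were 67.5% and 86.8%, and 84.7% and 92.5%. At Recovery the CpGs at 20 to under 50 bp stood at 73.4%, 70.6% and 56.0% around unrecovered CpGs in Cl.3, Cl.6 and Cl.9, and at 86.3%, 84.6% and 74.2% around recovered ones. In R1 and R2 they stood at 82.8% and 82.9% against 91.2% in both, close to their Baseline levels.

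**Figure D4:**
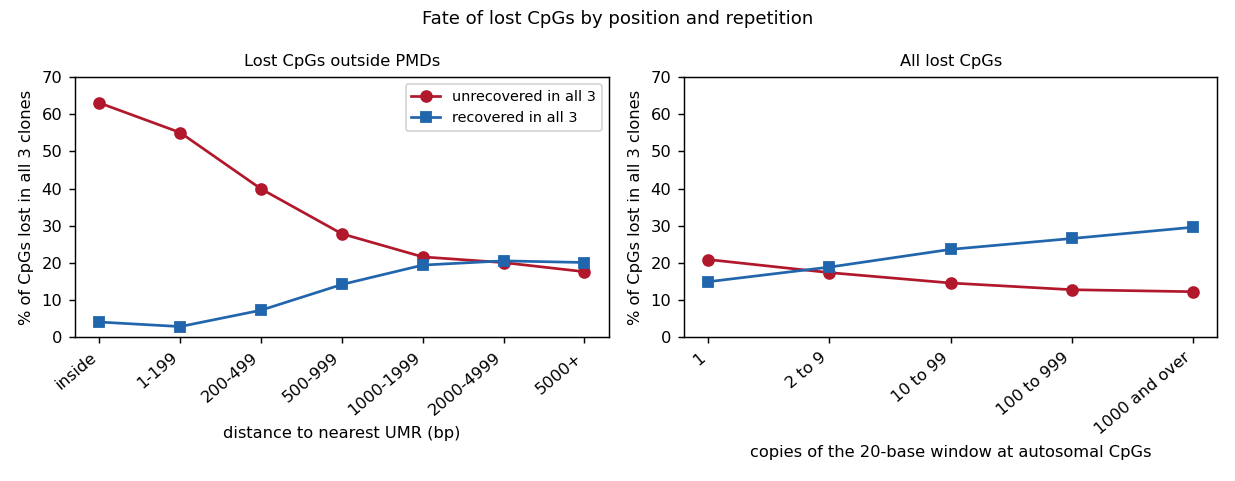
Share of lost CpGs (%) that were unrecovered (red circles) or recovered (blue squares) in all 3 clones. Left, by distance in bp to the nearest UMR of the R1 Baseline library that touches no PMD, for lost CpGs outside PMDs, where the unrecovered share falls from 55.1% at under 200 bp to 17.6% at 5000 bp or more. Right, by the number of autosomal CpGs that share the same 20-base window, where the recovered share rises from 14.9% to 29.6%.

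For every autosomal CpG the 20 bases around it (9 on each side of the CpG, either strand) were counted over all autosomal CpGs of hg38. Windows found once held 373266 lost CpGs, of which 20.9% were unrecovered and 14.9% recovered. Windows found 1000 times or more held 29011 lost CpGs, of which 12.3% were unrecovered and 29.6% recovered. Between them both shares moved step by step, to 17.4% and 18.9% at 2 to 9 copies, 14.6% and 23.7% at 10 to under 100 and 12.8% and 26.6% at 100 to under 1000. In each clone CpGs in windows of 1000 copies or more were less often unrecovered than lost CpGs as a whole, with 22.2% against 30.8% in Cl.3, 32.2% against 41.1% in Cl.6 and 64.1% against 79.0% in Cl.9. Bulk Recovery mC of unrecovered CpGs hardly differed, at 85.7% in windows found once and 85.8% in windows of 1000 or more in R1, and 86.0% in both in R2. Reads from repeated windows can be placed less surely, and the part of this in the shares was not tested.

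The 2 windows printed are among the repeated windows that hold most lost CpGs. Both were recognised from general knowledge as sequence of Alu, the most numerous short interspersed element of the human genome, since no repeat annotation was used here. Capitals again mark the CpG with its flanks.
first window: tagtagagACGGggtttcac
second window: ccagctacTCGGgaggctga
The first occurred at 92111 autosomal CpGs and held 2010 lost CpGs, of which 12.7% were unrecovered and 20.2% recovered. The second occurred at 107867 and held 1010 lost CpGs, with 13.8% and 15.2%. Their unrecovered shares were both below the 20.9% of windows found once. Among windows found once, WCGW flanks still separated the sets, at 53.3% of unrecovered and 37.4% of recovered CpGs.

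Neighbouring lost CpGs were often of the same class, though few members had another lost CpG very near (2639 pairs at 2 to under 20 bp around the 90315 members). Of lost CpGs 2 to under 20 bp from an unrecovered CpG, 52.6% were unrecovered and 3.90% recovered, and around recovered CpGs 8.80% were unrecovered and 35.9% recovered. At 200 to under 500 bp the shares were 26.7% and 15.6% around unrecovered CpGs and 19.7% and 22.8% around recovered ones. Beyond 5000 bp they came within 1 point of the shares around any lost CpG for the unrecovered class. Neighbours within a read length share reads, and both class and neighbour were read from the same libraries.

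**Figure D5:**
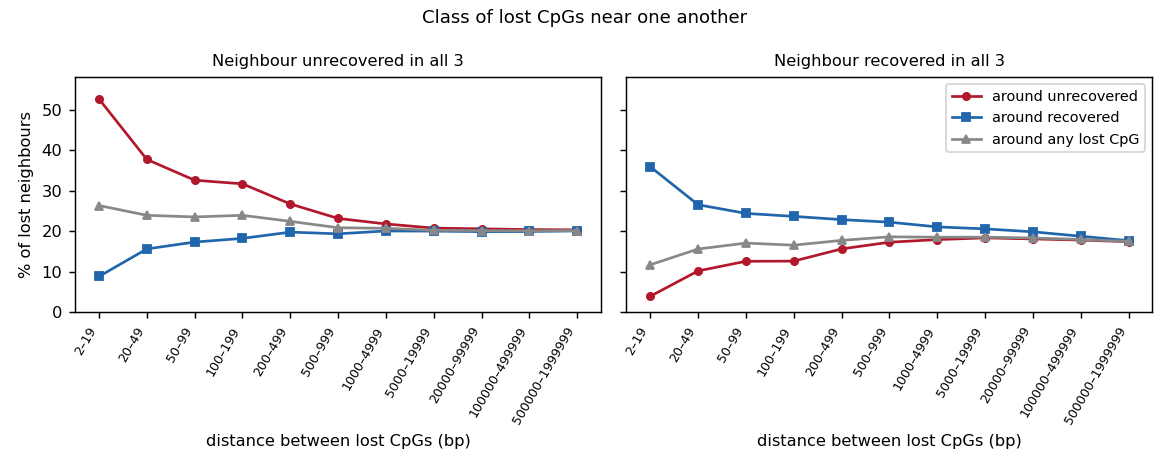
Share (%) of lost CpGs at a given distance (bp) from an unrecovered (red), recovered (blue) or any lost CpG (grey) that were themselves unrecovered (left) or recovered (right) in all 3 clones. At 2 to under 20 bp the unrecovered share is 52.6% around unrecovered and 8.80% around recovered CpGs, and at larger distances the lines come together on the left and on the right.

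By gene annotation (GENCODE release 44), promoters stood apart. Between 1 kb upstream and 100 bp downstream of the start of protein-coding genes, 35.4% of 5538 lost CpGs were unrecovered and 9.86% recovered. UMRs often hold promoters, and position in a promoter was not separated from distance to a UMR. Neither the promoter nor the UMR shares were split by Knockdown mC. In coding sequence the shares were 21.5% and 16.7%, in untranslated regions 23.6% and 16.7%, in introns 20.0% and 18.8% and in intergenic sequence 18.3% and 14.6%. Introns of protein-coding genes held 52.1% of all unrecovered CpGs, intergenic sequence 27.4% and promoters 2.17%. Chromosomes differed little, from 17.8% of lost CpGs unrecovered on chromosomes 13 and 6 to 23.7% on chromosome 19.

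Of 19111 protein-coding genes 12949 held an unrecovered CpG between their annotated ends. The most were in GSE1, for a protein of the CoREST repressor complex, with 155 unrecovered and 192 recovered of 804 lost CpGs. TRAPPC9 held 89 of 524, DOCK1, for an activator of the GTPase RAC, 87 of 356, and GRID1, for a glutamate receptor of the delta family, 81 of 310. FHIT, which spans the fragile site FRA3B, held 76 of 278, and SHANK2, for a postsynaptic scaffold, 73 of 320. KAZN and KSR2 held 66 each, CAMTA1 64 and SNX29 63. These counts follow the number of lost CpGs in a gene, and the unrecovered share of these 10 genes was 17.0% to 27.3%, around the median of 19.2% for the 1182 genes with at least 50 lost CpGs. The unrecovered CpGs of GSE1 had a mean mC of 97.1%, 42.2% and 53.2% at Baseline, Knockdown and Recovery in Cl.3, 96.1%, 33.0% and 45.7% in Cl.6, and 93.9%, 14.8% and 33.1% in Cl.9. In R1 and R2 they stood at 86.3% and 86.7% at Recovery.

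By share of lost CpGs, HHAT, for the acyltransferase that palmitoylates Hedgehog proteins, led with 51.5% unrecovered (35 of 68) and 13.2% recovered. The transcription factor gene SOX6 had 36.7% (33 of 90) and 3.33%, and NFIC, for another transcription factor, 36.5% (27 of 74) and 18.9%. KCNJ6, for a potassium channel, had 36.2% (21 of 58) with 1 recovered CpG, MYRIP 35.6% (37 of 104) with 2, and CADPS, for a protein of secretory vesicle release, 33.3% (17 of 51) with none. CFAP299, ENSG00000141979 and LHFPL6 had 33.9% to 35.3%. Over its whole span HHAT had a pooled mC of 59.95% at Baseline, 45.5% at Knockdown and 49.9% at Recovery in Cl.3, 63.7%, 40.5% and 47.5% in Cl.6, and 64.6%, 31.9% and 41.5% in Cl.9. In R1 it was 62.0%, 30.1% and 61.4%, and in R2 61.7%, 30.4% and 60.9%, so the gene as a whole returned to Baseline in the bulk populations.

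In promoters, 1659 genes held an unrecovered CpG and 283 held at least 2. The promoter of SLC12A9, of the cation-chloride cotransporter family, had 5 unrecovered among 5 lost CpGs. Promoters with 4 were those of TMA7, RHPN1, NUP188, for a nuclear pore protein, NUMA1, for a spindle protein, ABCB9, DHRS1 and SOCS4, for a suppressor of cytokine signalling. These 8 promoters held no recovered CpG, but they were chosen for unrecovered CpGs and had few other lost ones. In SLC12A9, RHPN1, NUMA1, DHRS1 and SOCS4 every lost promoter CpG was unrecovered. Over all promoters 9.86% of lost CpGs were recovered, so the absence follows largely from the choice. The unrecovered CpGs of SLC12A9 went from 100% at Baseline to 39.0% at Knockdown and 51.4% at Recovery in Cl.3, from 98.7% to 37.5% and 36.2% in Cl.6, and from 94.6% to 6.51% and 17.9% in Cl.9. In R1 they went from 89.98% to 26.96% and 84.04%, and in R2 from 90.8% to 19.2% and 84.8%. Those of NUP188 recovered less in the bulk populations, from 82.2% to 10.4% and 60.5% in R1 and from 77.5% to 9.79% and 60.4% in R2. Over the whole promoter, pooled mC at Baseline ranged in Cl.3 from 11.5% in SOCS4 to 91.3% in ABCB9, and stood under 30% in 6 of the 8, so outside ABCB9 the unrecovered CpGs were highly methylated sites within promoters of lower methylation. In Cl.6 and Cl.9 it was 13.8% and 7.31% in SOCS4 and 89.0% and 87.6% in ABCB9.

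Gene families were described by the share of lost CpGs in their spans, beside 20.4% unrecovered and 18.5% recovered over all protein-coding genes. All 12 large genes of common fragile sites held members, as did 12949 of 19111 protein-coding genes. Each of the 12 had more than 50 lost CpGs, and every gene with at least 50 held a member. Of their 1447 lost CpGs 21.4% were unrecovered, near the share over all genes, and 10.2% recovered, and 47.5% lay in PMDs. Among these genes WWOX had 24 unrecovered of 74 lost CpGs (32.4%), DLG2 36 of 129 with 2 recovered, and CTNNA3 17 of 140 (12.1%). Olfactory receptor genes had 23.02% of 291 unrecovered and 6.53% recovered, with 69.8% in PMDs, and zinc finger (ZNF) genes 22.01% of 3062 and 14.4%. Genes whose symbols start with RPL or RPS and a digit had 27.5% of 637 unrecovered and 16.6% recovered. That rule takes in cytosolic ribosomal proteins but also kinases and other genes with such symbols. The share is therefore not that of ribosomal proteins alone. HOX cluster genes had 15.1% of 146 unrecovered and 22.6% recovered, and clustered protocadherins 4 and 6 of 38. The 9 genes of the methylation machinery, among them UHRF1, DNMT1, DNMT3A, DNMT3B and TET1 to TET3, had 18.1% of 276 unrecovered and 23.9% recovered. UHRF1 itself held 3 unrecovered and 12 recovered of 32 lost CpGs, DNMT1 8 and 11 of 37, and DNMT3B 11 and 3 of 34. The families with most lost CpGs in PMDs had few recovered CpGs, as PMDs did as a whole.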

How the data were processed

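The 15 bisulfite libraries of HCT116 cells were read from 3 count tables. The authors aligned reads with Meth10X and deposited, for each CpG of hg38, the count of methylated reads and the count of all reads in each library, with both strands in 1 row and replicates apart. How duplicates and sequence variants were handled is not given in the sources used here. The domain classes the authors deposited (PMD, low-methylated region, UMR by MethylSeekR, HMD as the remainder with high mC, bedtools 2.25.0 per the submitters' processing notes) were used for the R1 and R2 Baseline libraries.

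mC was computed as methylated over all reads for autosomal CpGs with at least 10 reads, and the selection was then applied as the report gives it. Comparisons within clones or bulk populations set each library against the Baseline of its own population and used exact two-sided sign-flip permutation tests over populations. Fisher's exact test was applied per CpG, with Benjamini-Hochberg adjustment over all CpGs tested. Counts summed over 100 kb windows (minimum of 5 CpGs, and of 50 reads per library) were tested with edgeR 4.0.16 (R 4.3.3) by its quasi-likelihood test on methylated and unmethylated counts, with the population as a block. The same number names the same population in the labels. Deviations of R1 from R2 correlated over 27016 windows with r = 0.0150 to 0.103 between stages. The replicates are 3 clones and 2 bulk populations, and the sign-flip and window p-values of the bulk populations cover the spread between these 2. The differences read in a left-out clone share libraries and are not independent. The per-clone differences in solo-WCGW, low-density and PMD share rest largely on the same CpGs and are not independent either. No pair of libraries of a stage was alike within sampling noise. Other software was Python 3.11.15, NumPy 2.4.6, SciPy 1.17.1 and, for 1 alternative, limma 3.58.1. The statistics were tested on simulated data.

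Library depth was 317670080 to 593644411 reads at CpGs. Genes came from GENCODE release 44. Named genes were the 10 with most unrecovered CpGs in their span, the 10 with the highest share among those with at least 50 lost CpGs and the 10 with most in the promoter, beside gene lists. Members, lists and tests were chosen with earlier results of these data known, and the distances to UMRs, the 20-base windows and their classes were chosen after the data were seen. The example sequences were not drawn from chromosome 8. Some genes and sequences met by these rules are not reported here. Sex chromosomes and the domain calls of the other libraries were not used. Alternatives changed the reads, loss, deficit and Baseline thresholds, the meaning of recovered, the domain library, the replicate block and the libraries kept.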

Additional observations from a re-analysis of the deposited data

How the results depend on the processing

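Of 88 recomputations of the 7 tested differences, 85 kept the direction of the mean, and the other 3 all concerned the low-density share, which was -0.0225 points at 20 reads, -0.587 points with loss and deficit of 0.4 and -0.192 points when recovered meant 70% of the loss regained. The number of unrecovered CpGs followed the thresholds, from 90315 to 158830 at 5 reads, 6943 at 20 reads, 269559 with loss and deficit of 0.2, 31577 with 0.4 and 281331 when 70% of the loss had to be regained. Leaving out 1 clone gave 147473 to 444778. Fewer required clones or reads let more CpGs in by construction. Windows called lower at Recovery numbered 9853 with limma, 10522 with no filter on reads and 5428 to 6406 when 1 library was left out, where the lone sample of its group was assumed to vary like the others.

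Without the replicate block, which treats R1 and R2 as unpaired, 9378 windows were called in place of 10535. The mean bulk recovery difference of -2.59 points could not change, since a mean of paired differences equals the difference of the means. It is counted among the recomputations above but is no check. No alternative without the block was run for the clones, whose values come from within each clone.

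Chosen after seeing the data, CpGs of Baseline mC of 0.85 or more in R1 and R2 gave bulk differences of -3.27 points at Recovery, -9.08 at Knockdown and -1.98 at Baseline. This filter used the Baseline values that the differences subtract, so it is no check on the lower start of members. The solo-WCGW difference was 9.79 points outside PMDs and 2.52 inside, and the low-density difference inside was 4.56 points. DESeq2 was not run, since the counts are paired methylated and unmethylated reads. At 10 reads a deficit of a few points at 1 CpG was below what Fisher's test could call. Statements on small deficits rest on means over CpGs.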
